A study of Arabidopsis thaliana with 8 samples.

Results

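The genes described here encode proteins of the 60S subunit, the large subunit of the cytosolic ribosome, in dissected shoot apices of Arabidopsis thaliana. They were given as a list of 60 nuclear loci that belong to 25 protein families, L3 to L27. A family below means the listed loci that encode one ribosomal protein, and paralogs outside the list are not counted in it. A locus counted as measured where the annotation used here assigned a probe set to it alone, which was so for 37 of the 60 loci. Of these 37, 36 entered the tests, out of 14005 probe sets tested in all. The 60S subunit carries the centre that joins amino acids into protein and the tunnel through which the new chain leaves. Plants keep several expressed copies of most ribosomal protein genes, and many of these copies are needed for normal leaf shape and cell number. PGY1, an L10a gene among the members, is known from a mutant with altered leaf polarity, and mutants in L5 genes enhance the leaf defect of plants without GIF1.

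The study compared 4 genotypes in the Col-0 accession, with 2 arrays each, lettered A and B, 8 in all. The first was rGRF3x35S:GIF1, called the double line below, which carries both transgenes. The second was rGRF3, labelled a GRF3 overexpressor and known from published work as a GRF3 version that escapes cleavage by microRNA miR396. The third was 35S:GIF1, labelled a GIF1 overexpressor, in which the 35S promoter, active in most plant tissues, drives the co-activator GIF1. The fourth was Col-0, the wild type. GRF transcription factors act together with GIF1 in dividing cells of young leaves. All apices were taken with their leaf primordia at day 20 from soil-grown plants kept in short days with 8 h of light and 16 h of darkness at 23 °C. Neither the number of transgenic lines behind a genotype, nor pooling, nor the meaning of the letters is given in the labels. The p-values below thus rest on the spread among these arrays, and that spread may be technical.

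Each array had between 60.2% and 60.7% of its probe sets at a log2 signal of at least 4, and the array medians lay between 5.9 and 5.97. GIF1 and GRF3 have no probe set assigned by name here, so the transgenes did not check the labels. Of the apex markers, CLV3, which marks meristem stem cells, stood at the floor of 2.12 on all 8 arrays. It was the only meristem marker of 10 with a probe set assigned to it alone in the annotation used here. The leaf primordium genes PHV, YAB5 and YAB3 were detected on every array, the only 3 of 13 with such a probe set. Their summed log2 signal ran from 22.9 to 23.5. The arrays differed by letter: 24.6% of tested probe sets differed between B and A in limma with genotype in the model (adjusted p under 0.05). Comparisons are therefore given within each letter as well as over both arrays.

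The measured loci were spread unevenly over the families. L3, L5, L8, L10, L11, L23a and L24 had no single-gene probe set, which leaves 18 families with a measured gene and 12 with at least 2 tested paralogs. A further 4 loci share probe sets in pairs, AT1G74060 with AT1G74050 (L6) and AT1G33140 with AT1G33120 (L9). In the annotation used here 19 loci had neither kind. That annotation left 8730 probe sets without a gene, so such a locus may still be on the array. Only PGY1 among the 37 measured loci has a gene name of its own, while most loci of the 7 unmeasured families have one. AT3G48960, an L13 gene, lay at the floor of 2.12 on all 8 arrays and was not tested. The other 36 were each read by 1 probe set. Probe sets differ in how brightly they hybridise, so the signal of one gene is not set against that of another.

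In the double line 33 of the 36 genes had a lower mean signal than in Col-0, with a median log2 difference of -0.14 and a range of -0.96 to 0.11. Over all tested probe sets 51.5% were lower and the median was -0.01. None of the 36 passed the test (limma, adjusted p under 0.05), and 0.00714% of all probe sets did. At an unadjusted p under 0.05 there were 5 of the 36, against 6.44% of all probe sets. With the letter as replicate block none passed either, where 0.0357% of probe sets did, and 6 had an unadjusted p under 0.05, where 17.5% did. In bulk apices, fewer cells of a kind and less RNA per cell cannot be told apart. The median was -0.03 without the B array of the double line, with 23 genes lower, and -0.08 without the B array of Col-0. After cyclic loess normalisation between arrays it was -0.07, with 27 genes lower.

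In rGRF3 the same count of 33 genes was lower than in Col-0, with a median log2 difference of -0.09 and a range of -0.92 to 0.12. Among all probe sets 54.3% were lower and the median was -0.02. No gene passed in limma, and 0.0% of all probe sets did. At an unadjusted p under 0.05 there was 1 gene, AT2G32220, against 3.42% of all probe sets. The median was -0.05 without the B array of rGRF3, without the B array of Col-0, and after cyclic loess, with 25 genes lower each time.

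In 35S:GIF1 the genes lay on both sides of Col-0, 16 lower and 20 higher, with a median log2 difference of 0.02. Of all probe sets 52.1% were lower. None of the 36 passed in limma, where 0.00714% of probe sets did, and none had an unadjusted p under 0.05, where 1.41% did. Without the B array of Col-0 10 genes were lower. The 3 comparisons share the Col-0 arrays, so their values are not independent of each other.

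The letters gave different pictures, as the map of all 36 genes by array shows. The B array of the double line was below the gene's own mean over 8 arrays for 36 of 36 genes, with a median of -0.15. On the A array of the same line 15 genes were below their mean and the median was 0.02. The rGRF3 arrays had 32 genes below their mean in B and 18 in A. For 35S:GIF1 those counts were 7 in B and 5 in A, and for Col-0 they were 6 in B and 18 in A. Over all 14005 tested probe sets the counts ran from 6719 (double line, array A) to 7611 (rGRF3, array B). The B array of the double line was the lowest of the 8 arrays for 22 of the 36 genes, where it was the lowest for 15.4% of all probe sets. The B array of Col-0 was the highest for 12 genes, against 20.2% of all probe sets.

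**Figure D1:**
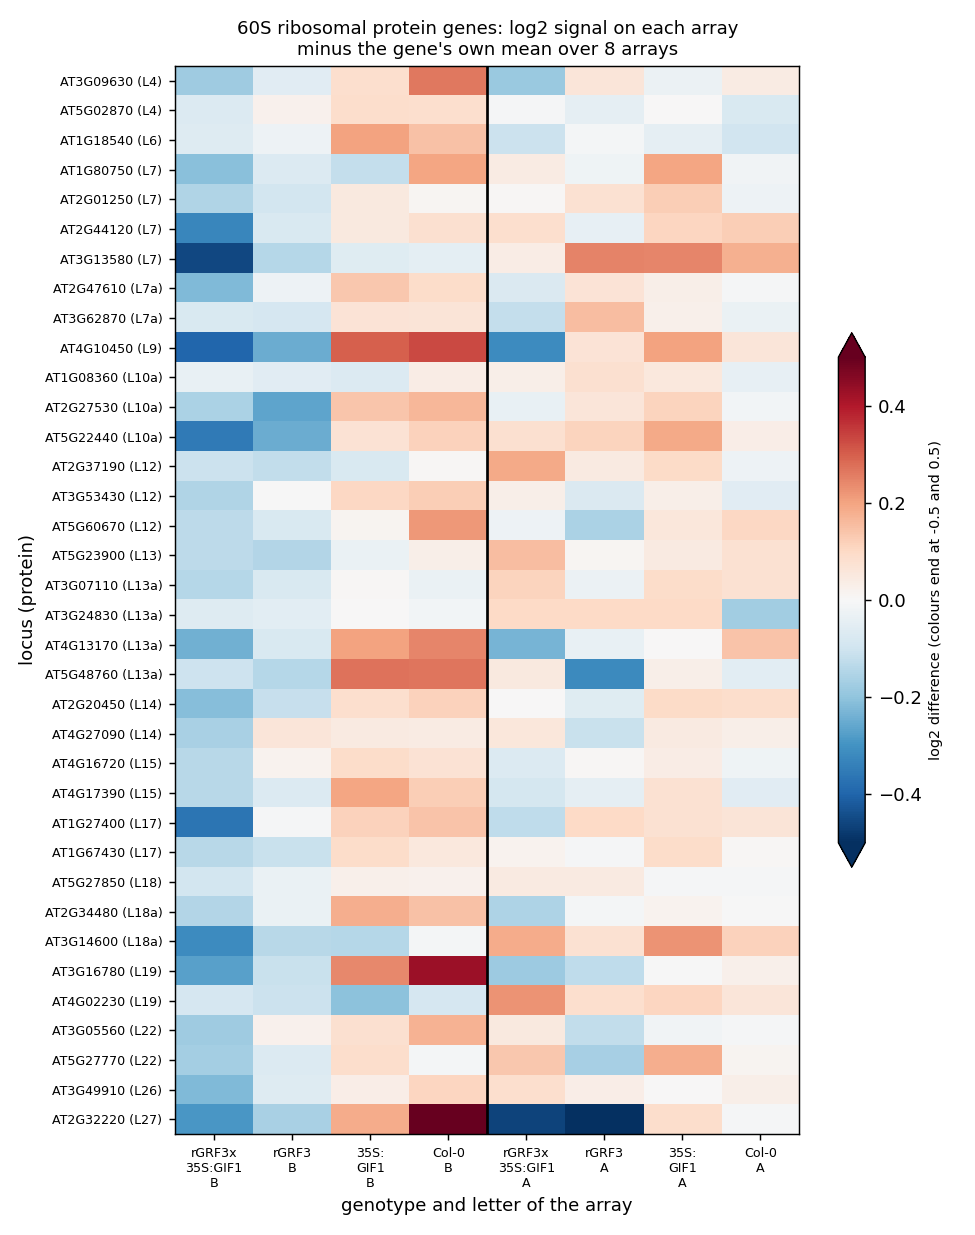
Colour map of the 36 tested 60S ribosomal protein genes (rows, locus and protein) on the 8 arrays (columns, genotype and letter, B left of the line), as log2 signal minus the gene's own mean over 8 arrays. The first column, the B array of rGRF3x35S:GIF1, is blue in all 36 rows, while its A array has 15 genes below their mean and 21 above.

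Within letter B, 35 of the 36 genes of the double line lay below Col-0, with a median log2 difference of -0.30. The same direction held for 51.1% of all probe sets. Within letter A 17 were lower, with a median of 0.02, against 50.2% of all probe sets. rGRF3 gave equal counts: 35 genes were lower than Col-0 in letter B (median -0.15, 52.9% of all probe sets) and 17 in letter A (median 0.01, 53.7%). In 35S:GIF1, 21 were lower in letter B (median -0.03, 50.5%) and 9 in letter A (median 0.06, 52.5%). A difference within a letter sets 1 array against 1 array and has no replicate of its own.

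**Figure D2:**
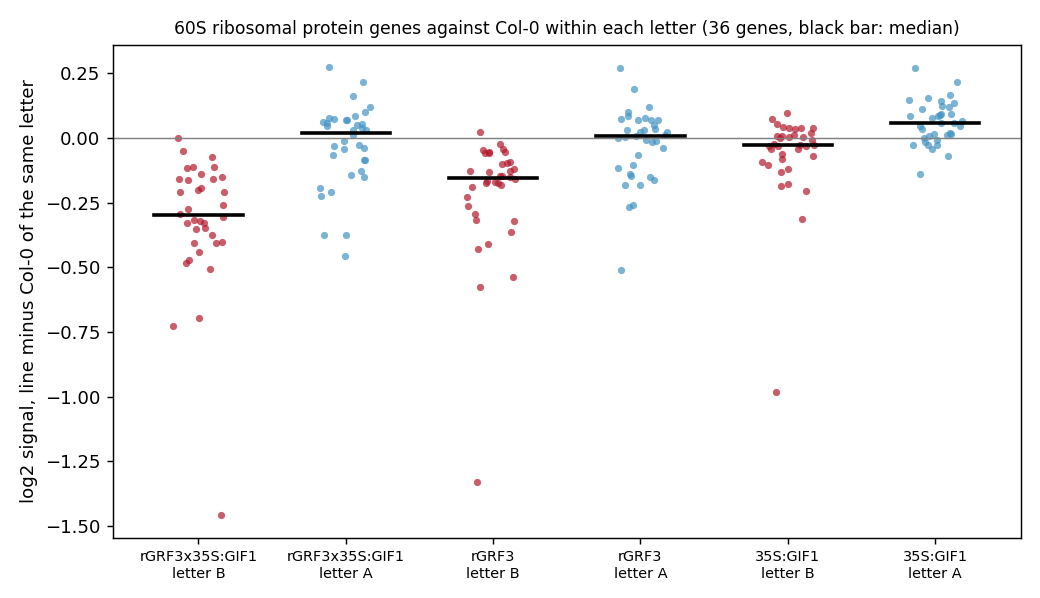
Log2 signal of each line minus Col-0 of the same letter, one point per gene (36 genes), with letter B in red, letter A in blue and a black bar at the median. The red points of rGRF3x35S:GIF1 and of rGRF3 lie almost wholly under 0 (medians -0.30 and -0.15), while the blue points straddle it.

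Arrays with rGRF3, alone or with 35S:GIF1, were then set against arrays without it inside each letter. In letter B both rGRF3-carrying arrays lay below both other arrays for 31 of the 36 genes, where 28.3% of all probe sets did so, and for no gene above both, where 23.9% did so. In letter A 7 genes lay below, against 20.6% of all probe sets, and 2 above, against 18.6%. The mean difference of carriers minus the others had a median of -0.21 in letter B, with 35 of 36 genes below 0. In letter A that median was -0.04, with 26 below 0. Over all 14005 tested probe sets 7216 were below 0 in letter B and 7240 in letter A, with a median of -0.01 in each. After cyclic loess the letter B count was 19, against 25.5% of all probe sets, and after centring arrays on their medians it was 32, against 30.3%.

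The difference between the letters was tested directly, as the interaction of letter with rGRF3. Letter B minus letter A, the rGRF3 effect had a median of -0.17 and was below 0 for 36 of 36 genes, with a range of -0.38 to -0.02. Over all probe sets 50.5% were below 0, and the median lay at 0.00 to 2 decimals. No gene passed in limma, where 0.0% of probe sets did, and none had an unadjusted p under 0.05, where 6.23% did. AT5G22440 (L10a), AT3G16780 (L19) and AT4G10450 (L9) had the lowest p-values, with log2 differences of -0.38, -0.36 and -0.38 (adjusted p = 0.748 each). Without either array of the double line 27 genes were below 0, and without either array of Col-0 30 were. After cyclic loess there were 33.

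**Figure D3:**
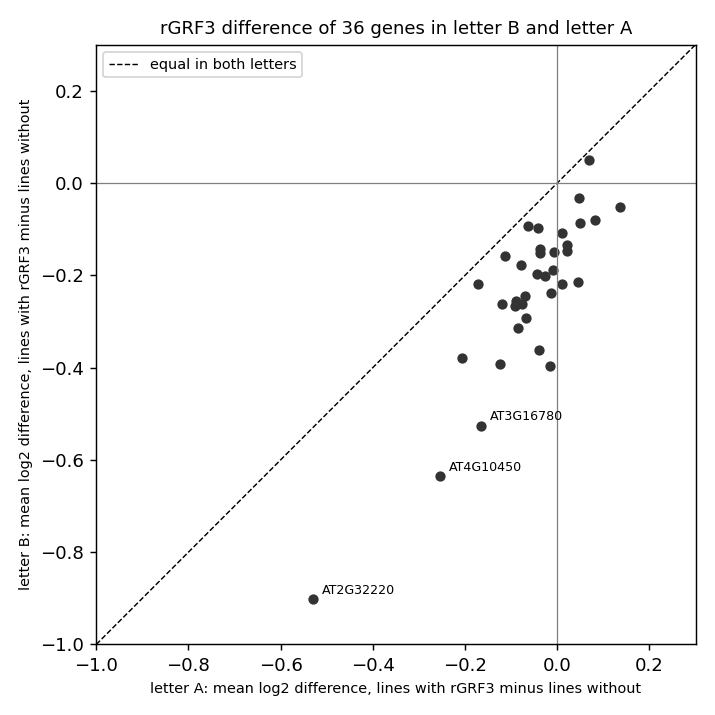
Mean log2 difference of the lines with rGRF3 minus the lines without it, letter A on the x axis and letter B on the y axis, one point per gene (36 genes), with a dashed line of equal values. All 36 points lie under the dashed line, and 35 of them lie under 0 in letter B against 26 in letter A.

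Technical controls differed by letter too. 25S ribosomal RNA, the RNA core of the 60S subunit, has a control probe set, which read 6.34 (B) and 10.9 (A) in the double line and 6.76 and 8.23 in rGRF3. It read 6.66 (B) and 7.88 (A) in 35S:GIF1 and 7.01 (B) and 6.22 (A) in Col-0. Its highest value therefore stood on the A array of the double line. The log2 signal of the 3′ end minus the 5′ end of actin, a sign of RNA length, was lowest in the double line, array B, at 0.851 and highest on the A array of Col-0 at 1.31, and it was lower in B than in A in each genotype. For GAPDH it ran from 1.28 to 1.59 and for ubiquitin from 1.70 to 1.86. These 2 were lower in B than in A in the double line, rGRF3 and Col-0, but not in 35S:GIF1, and ubiquitin was lowest on the B array of Col-0. The part of these controls in the results was not tested.

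Proteins that line or surround the exit tunnel include L4, L17 and L26. AT3G09630 (L4) had log2 signals of 12.92 (B) and 12.91 (A) in the double line, 13.04 and 13.16 in rGRF3, 13.18 and 13.07 in 35S:GIF1, and 13.36 and 13.14 in Col-0. Both double-line arrays were the lowest of the 8, below both Col-0 arrays in each letter. Its difference between the double line and Col-0 was -0.33 (SE 0.14, adjusted p = 0.758 in limma), and -0.22 without the B array of Col-0. AT1G27400 (L17) had a similar order, with 12.45 (B) and 12.68 (A) in the double line, 12.80 and 12.91 in rGRF3, 12.93 and 12.88 in 35S:GIF1, and 12.95 and 12.87 in Col-0. Its difference from Col-0 was -0.35 for the double line (-0.23 without its B array) and -0.06 for rGRF3, and the double line minus rGRF3 was -0.29. For this gene the non-additive term, defined below, was -0.28 (SE 0.20, unadjusted p = 0.198 in limma). None of these differences passed. AT1G67430, the other L17 gene, differed from Col-0 by -0.09 in the double line. AT3G49910 (L26) read 14.04 (B) and 14.35 (A) in the double line, 14.20 and 14.30 in rGRF3, 14.30 and 14.26 in 35S:GIF1, and 14.37 and 14.29 in Col-0. Its 2 double-line arrays lay on either side of the A array of Col-0, and the difference was -0.14 (SE 0.15, adjusted p = 0.901).

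The stalks and their bases hold L10a, which forms the mobile L1 stalk, and L12 and L9, which sit near the factor-binding stalk. PGY1 (AT2G27530, L10a) had 12.82 (B) and 12.94 (A) in the double line, 12.72 and 13.04 in rGRF3, 13.12 and 13.09 in 35S:GIF1, and 13.14 and 12.97 in Col-0. The 2 B arrays with rGRF3 stood apart below the others, and in letter A the 4 genotypes lay close together. Its differences from Col-0 were -0.17 in the double line and -0.18 in rGRF3. AT5G22440, a second L10a gene, showed the same split: 11.74 (B) and 12.17 (A) in the double line, 11.84 and 12.20 in rGRF3, 12.16 and 12.28 in 35S:GIF1, and 12.21 and 12.12 in Col-0. Among the third, AT1G08360, all 8 values lay between 13.42 and 13.56, and the double line differed from Col-0 by 0.00 to 2 decimals.

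AT4G10450 (L9) had the lowest p-value against Col-0 in the double line. It read 10.82 (B) and 10.91 (A) there, 10.97 and 11.29 in rGRF3, 11.52 and 11.42 in 35S:GIF1, and 11.55 and 11.28 in Col-0. Both double-line arrays lay below both Col-0 arrays, in letter B by 0.73 and in letter A by 0.37 on the log2 scale. The difference was -0.55 (SE 0.17, 95% confidence interval -0.96 to -0.14), 68.3% of the Col-0 signal, with an adjusted p of 0.714 in limma. Against 35S:GIF1 it was -0.61, and the rGRF3 line alone differed from Col-0 by -0.28, or -0.13 without its B array and -0.15 without the B array of Col-0. The shared L9 probe set read 13.17 (B) and 13.26 (A) in the double line, 13.10 and 13.50 in rGRF3, 13.47 and 13.47 in 35S:GIF1, and 13.42 and 13.29 in Col-0. Its 2 lowest values were thus the B arrays with rGRF3, rGRF3 alone being the lower. The shared L6 probe set had its lowest value in the double line, array B, at 12.16.

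Of the 3 L12 genes, AT5G60670 was lower than Col-0 in each line. It read 12.31 (B) and 12.42 (A) in the double line, 12.37 and 12.29 in rGRF3, 12.46 and 12.50 in 35S:GIF1, and 12.66 and 12.55 in Col-0. All 6 transgenic arrays lay below both Col-0 arrays, and the differences were -0.24, -0.28 and -0.12, none of which passed. AT2G37190 read 13.33 (B) and 13.62 (A) in the double line, 13.31 and 13.48 in rGRF3, 13.36 and 13.53 in 35S:GIF1, and 13.44 and 13.41 in Col-0. Here every A array of the transgenic lines was above, and every B array below, both Col-0 arrays. The third gene, AT3G53430, differed from Col-0 by -0.10 in the double line.

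L19 reaches over to the small subunit as part of a bridge between the subunits. AT3G16780 (L19) read 10.90 (B) and 10.99 (A) in the double line, 11.06 and 11.05 in rGRF3, 11.42 and 11.17 in 35S:GIF1, and 11.60 and 11.20 in Col-0. The 4 arrays with rGRF3 were the lowest of the 8, and 35S:GIF1 lay between them and Col-0. The differences from Col-0 were -0.45 in the double line (SE 0.18, adjusted p = 0.758 in limma) and -0.35 in rGRF3. Without the B array of Col-0 the difference of AT3G16780 was -0.25 in the double line and -0.14 in rGRF3. Its paralog AT4G02230 read 12.04 (B) and 12.34 (A) in the double line, 12.01 and 12.20 in rGRF3, 11.91 and 12.23 in 35S:GIF1, and 12.03 and 12.18 in Col-0. That gene separated the letters and not the genotypes, with all 4 B arrays below all 4 A arrays.

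Among the other families, L13a held the widest range. AT4G13170 (L13a) read 10.94 (B) and 10.95 (A) in the double line, 11.10 and 11.14 in rGRF3, 11.38 and 11.18 in 35S:GIF1, and 11.42 and 11.32 in Col-0. Its 8 values followed the order double line, rGRF3, 35S:GIF1, Col-0 in both letters. The difference was -0.43 for the double line (SE 0.13, adjusted p = 0.714 in limma) and -0.25 for rGRF3. AT3G24830, another L13a gene, lay on the other side of Col-0: 13.50 (B) and 13.66 (A) in the double line, 13.51 and 13.66 in rGRF3, 13.56 and 13.66 in 35S:GIF1, and 13.55 and 13.39 in Col-0. The low value was the A array of Col-0 alone, and in letter B the double line and rGRF3 were slightly below Col-0. It was the gene with the lowest p among those higher than Col-0 in each line, at 0.11, 0.12 and 0.14, and none passed.

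AT2G32220 (L27) had the dimmest tested probe set and the largest differences. It read 5.60 (B) and 5.43 (A) in the double line, 5.73 and 5.37 in rGRF3, 6.07 and 5.98 in 35S:GIF1, and 7.06 and 5.88 in Col-0. The B array of Col-0 stood alone at the top, 1.17 above its A array, while the 4 arrays with rGRF3 were the lowest 4. Its differences from Col-0 were -0.96 in the double line (SE 0.37, adjusted p = 0.758 in limma), -0.92 in rGRF3 and -0.44 in 35S:GIF1. Without the B array of Col-0 they were -0.37 in the double line, -0.33 in rGRF3 and 0.14 in 35S:GIF1. Leaving this gene out moved the medians over the genes at most in the second decimal.

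L22 and L7a gave small differences. AT5G27770 (L22) read 12.75 (B) and 13.06 (A) in the double line, 12.85 and 12.76 in rGRF3, 13.01 and 13.10 in 35S:GIF1, and 12.91 and 12.94 in Col-0. Both 35S:GIF1 arrays lay above both Col-0 arrays, by 0.13 on average, which did not pass, and the double-line arrays lay on either side. AT3G62870 (L7a) read 13.48 (B) and 13.44 (A) in the double line, 13.47 and 13.71 in rGRF3, 13.63 and 13.58 in 35S:GIF1, and 13.62 and 13.52 in Col-0. Its 2 rGRF3 arrays enclosed the Col-0 values, and the sign of that difference, 0.02, turned without the A array of rGRF3 (-0.10). AT1G18540 (L6), which differed from Col-0 by -0.11 in the double line, had its 2 highest values in letter B, at 13.12 in 35S:GIF1 and 13.07 in Col-0. The remaining tested genes, of L7, L7a, L13, L13a, L14, L15, L18, L18a and L22, differed from Col-0 in the double line by between -0.27 and -0.03.

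Counting arrays that did not overlap gave a measure free of the model. Both double-line arrays lay below both Col-0 arrays for 14 of the 36 genes, where 16.6% of all probe sets did, and above for none, where 15.8% did. The rGRF3 arrays lay below both Col-0 arrays for 12 genes (14.0% of all probe sets) and above for none (11.5%). The 35S:GIF1 arrays lay below for 1 gene, AT5G60670 (9.77%), and above for 5 (9.23%).

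Paralogs of one protein did not all lie on the same side of Col-0. Of the 12 families with at least 2 tested genes, 30 genes in all, 9 had every tested gene below Col-0 in the double line. L12, L13a and L19 were the exceptions, each with 1 higher gene. The 4 families with the widest spread between paralogs were L13a, L19, L4 and L12. In L13a, AT4G13170 relative to AT3G24830 differed by -0.43 in letter B and -0.65 in letter A between the double line and Col-0. In L19, AT3G16780 relative to AT4G02230 gave -0.70 in letter B and -0.37 in letter A. In L4 the values for AT3G09630 relative to AT5G02870 were -0.29 and -0.30, and in L12 those for AT5G60670 relative to AT2G37190 were -0.24 and -0.34. In these 4 pairs the gap between the paralogs was lower on both double-line arrays than on both Col-0 arrays. Taking the lowest and the highest gene of a family fixes the sign of the mean difference in advance. The gap was also lower on both double-line arrays than on both Col-0 arrays in L17, L10a and L14. In L7, L22, L18a, L7a and L15 the gaps of the double line and Col-0 were not separated in this way. The pairs were picked for their spread in this comparison, so no test was made, and an exact permutation test of 2 arrays against 2 cannot go below p = 0.333, two-sided.

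**Figure D4:**
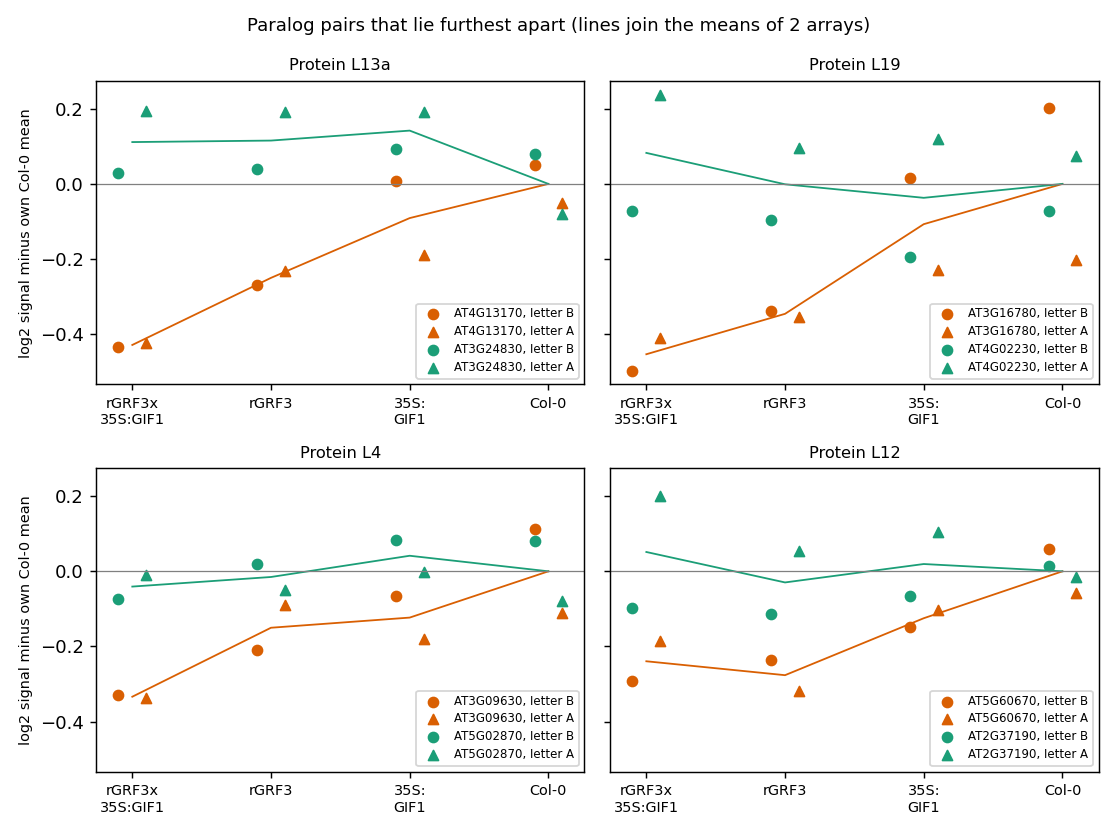
Log2 signal minus the gene's own mean in Col-0 for the 4 paralog pairs that lie furthest apart in rGRF3x35S:GIF1, with circles for letter B, triangles for letter A and lines joining the means of 2 arrays. In L13a the orange gene, AT4G13170, lies 0.43 under its Col-0 mean in the double line and the green gene, AT3G24830, 0.11 over it.

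AT5G02870, the L4 paralog in those pairs, read 12.75 (B) and 12.81 (A) in the double line, 12.84 and 12.77 in rGRF3, 12.90 and 12.82 in 35S:GIF1, and 12.90 and 12.74 in Col-0. Its values crossed between groups, and the sign of its difference from Col-0, -0.04, turned to 0.02 after cyclic loess. Across the 36 genes, the difference between the double line and Col-0 correlated with mean array signal (Pearson r 0.73, and 0.46 without AT2G32220). For rGRF3 the values were 0.82 and 0.58. The 18 dimmer probe sets had a median of -0.20 in the double line and the 18 brighter ones -0.11. All points share the same 8 arrays, and brightness of a probe set is not transcript abundance, so this is a description only.

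Between the letters themselves, 1 of the 36 genes passed, AT3G13580 (L7), where 24.6% of all probe sets passed and 12.7% were lower in B. It read 11.28 (B) and 11.77 (A) in the double line, 11.59 and 11.98 in rGRF3, 11.68 and 11.98 in 35S:GIF1, and 11.68 and 11.91 in Col-0. All 4 B arrays lay below all 4 A arrays. AT3G13580 averaged 11.56 ± 0.19 on the B arrays and 11.91 ± 0.10 on the A arrays. These are SDs over 4 arrays, 1 of each genotype, so they include genotype differences. The difference between letters was -0.35 (SE 0.08, adjusted p = 0.0301 in limma). Leaving out either array of the double line, rGRF3 or 35S:GIF1 ended this call (adjusted p 0.0904 to 0.109).

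AT3G14600 (L18a) came next, with 12.76 (B) and 13.26 (A) in the double line, 12.94 and 13.15 in rGRF3, 12.94 and 13.30 in 35S:GIF1, and 13.07 and 13.19 in Col-0. It too had every B array below every A array, by 0.30 on average, and did not pass (adjusted p = 0.0633 in limma). With AT4G02230 this made 3 genes with all B arrays below all A arrays, where 15.6% of all probe sets had that order, and none with all above, where 13.6% did. At an unadjusted p under 0.05 there were 3 of the 36, against 39.8% of all probe sets. Over the 36 genes the median letter difference was -0.05 and 23 were lower in B, against 51.6% of all probe sets. The median of B minus A was -0.16 in the double line, with 31 genes below 0, and -0.07 in rGRF3, with 26. It was 0.03 in 35S:GIF1, with 16 below 0, and 0.10 in Col-0, with 7. Over all 14005 tested probe sets 7509 were below 0 in the double line, 7161 in rGRF3, 6995 in 35S:GIF1 and 7000 in Col-0.

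The double line was also set against each single line. Compared with 35S:GIF1, 32 of the 36 genes were lower, with a median of -0.16, where 49.7% of all probe sets were lower. Of all 36 genes, 34 were lower within letter B (median -0.26, 50.6% of all probe sets) and 25 within letter A (median -0.08, 47.8%). Both double-line arrays lay below both 35S:GIF1 arrays for 18 genes (14.6% of all probe sets) and above for none (14.1%). None passed in limma, where 0.0% of probe sets did, and 3 had an unadjusted p under 0.05, where 2.53% did: AT4G10450, AT4G13170 and AT1G27400. The median was -0.07 after cyclic loess and -0.06 without the B array of the double line.

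Compared with rGRF3, 28 genes of the double line were lower, with a median of -0.04, where 46.9% of all probe sets were lower. Within letter B 29 were lower (median -0.10, 48.6% of all probe sets) and within letter A 16 (median 0.01, 46.1%). Both arrays lay below both for 10 genes (9.37% of all probe sets) and above for 1 (12.1%). None passed in limma, where 0.00714% of probe sets did, and none had an unadjusted p under 0.05, where 1.26% did. Without the B array of the double line 13 genes were lower and the median was 0.06. The non-additive term, which takes the 35S:GIF1 difference on top of rGRF3 less the 35S:GIF1 difference on top of Col-0, was below 0 for 27 genes with a median of -0.04, against 46.5% of all probe sets. It passed for none in limma, where 0.0% of probe sets passed, and for none at an unadjusted p under 0.05, where 0.878% did. After cyclic loess 16 genes were below 0 and the median was 0.01.

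Other genes of the ribosome and of its assembly are given for comparison, from lists of loci. Of 94 genes of the 40S subunit, 41 were tested, and 35 of them lay below Col-0 in the double line, with a median of -0.16 over both letters, -0.26 in letter B and -0.02 in letter A. None passed. AT1G23410 was the lowest of them, at 7.28 (B) and 7.67 (A) in the double line, 7.88 and 8.02 in rGRF3, 8.61 and 8.23 in 35S:GIF1, and 8.82 and 8.29 in Col-0. Its rGRF3-carrying arrays lay below the others in both letters, and the difference from Col-0 was -1.09 (adjusted p = 0.627 in limma).

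Of 57 further loci for 60S proteins, 26 were tested and 23 were lower in the double line, with a median of -0.24, which was -0.41 in letter B and -0.03 in letter A. AT3G06700 among them differed from Col-0 by -0.58 and did not pass. The 10 tested genes of the P-stalk, which recruits translation factors, were all lower in the double line, with a median of -0.23. Their median was -0.38 in letter B, with 10 of 10 lower, and -0.14 in letter A, with 7 of 10 lower. For the 10 tested of 38 loci for assembly factors of the ribosome, all lower in the double line, the median was -0.42, with -0.78 in letter B and -0.11 in letter A. AT3G12860 had the largest difference of these, -0.83. In all 4 lists no gene passed in any genotype comparison. Between letters 3 of the 41 genes of the 40S subunit were lower and 1 higher in B in limma, where 12.7% of all probe sets were lower and 11.8% higher, and the assembly factor gene AT3G15460 was higher in B (log2 difference 0.76, adjusted p = 0.0494). The 2 tested of 12 elongation factor genes differed from Col-0 by -0.69 (AT5G12110) and -0.11 (AT5G19510) in the double line, and EIF4A-2, the only one tested of 19 initiation factor genes, by -0.28. None of the 3 passed in a genotype comparison. AT5G12110 did pass between letters, higher in B (log2 difference 1.09, adjusted p = 0.0155 in limma), and in Col-0 it read 10.20 (B) and 8.53 (A).

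Nuclear genes for proteins of the plastid ribosome, a separate machine, gave other values by letter. All 6 tested of 23 lay below Col-0 in the double line, with a median of -0.12, but it was -0.02 in letter B and -0.25 in letter A. Between letters 5 of the 6 were lower in B in limma (adjusted p between 0.0139 and 0.0372), beside the 12.7% of all probe sets that were. The rGRF3 effect in letter B minus letter A was below 0 for 2 of these 6 genes, against 50.5% of all probe sets. It was below 0 for 40 of 41 genes of the 40S subunit and 26 of 26 of the further 60S loci. The same held for 9 of 10 P-stalk genes and 10 of 10 assembly factors. None of these passed.

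Markers of other cells in the sample were read from the same arrays. Trichome and guard cell genes, 4 of 8 with a single-gene probe set, had summed log2 signals of 21.9 (B) and 23.4 (A) in the double line and 22.3 and 23.5 in rGRF3. The sums were 22.7 (B) and 24.3 (A) in 35S:GIF1 and 23.2 and 24.9 in Col-0. These sums were lowest where rGRF3 was present in each letter, and lower in B in each genotype, but single genes of the list differed. In letter B, TRY was highest in rGRF3 (5.45, against 5.35 in Col-0). In letter A, SPCH was highest in rGRF3 (8.18, against 8.04 in Col-0). MUTE in rGRF3 (4.25 in B, 4.14 in A) and FMA in 35S:GIF1 (5.66 in B, 5.60 in A) were higher in B. TRY, a trichome gene of this list, was lower in B (log2 difference -0.73, adjusted p = 0.0176 in limma). No gene of the photosynthesis, vascular and floral lists had a probe set assigned to it alone in the annotation used here. That annotation left 8730 probe sets without a gene, so these genes may still be on the array. The part of cell composition in the ribosomal protein values was not tested.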

How the data were processed

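Total RNA of 8 apex samples was hybridised to Affymetrix ATH1 arrays. Per the submitters' processing notes GCRMA and limma were used, and the deposited signals are log2 values, as their range of 2.12 to 15.55 shows. The Col-0 columns carry up to 9 decimals and the others up to 3, and nothing says why. Versions and a genome build are not given in the sources used here.

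Probe sets were named through the platform annotation (13513 with 1 gene, 503 with several, 8730 with none, 64 controls), updated with the TAIR10.1 gene table, which was used for names only. For a gene with several single-gene probe sets the one with the highest mean was to be kept, but no member had more than 1. Protein families were entered by hand from general knowledge, as were the lists of other ribosomal, assembly, translation and marker genes. The members and lists were chosen with earlier results of these data known.

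Probe sets with a log2 signal of at least 4 on at least 2 arrays were tested with limma 3.58.1 in R 4.3.3 (lmFit, contrasts.fit, eBayes) on genotype means over all 8 arrays. Benjamini-Hochberg adjustment ran over 14005 probe sets, with calls at 0.05. The letter comparison added genotype, and the rGRF3 by letter term used genotype, letter and their interaction with rGRF3. The fit was tested on simulated data with large added shifts, independent noise and no letter difference. That run cannot tell how well differences as small as those of the members are found. Deviations of A and B correlated between all 6 pairs of genotypes (0.593 to 0.754), which was read as pairing by letter, from the data and not the labels. Other settings were no filter, a minimum of 6, the 2 groups alone, median centring, cyclic loess, trend and robust, the letter as replicate block and leaving out each array. Genes named with all values had the lowest p per direction in a comparison, passed, had the brightest or dimmest probe set, or ended the 4 widest families. AT1G27400, PGY1, AT5G22440, and the genes with shared probe sets were added after their values were seen. Tables and plots used Python 3.11.15, pandas 2.3.3, numpy 2.4.6 and matplotlib 3.10.9.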

Additional observations from a re-analysis of the deposited data

Results flagged for a closer look

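The 25S ribosomal RNA control probe set, which no comparison uses, read above both Col-0 arrays (7.01 in B and 6.22 in A) on 3 arrays. These were the A arrays of rGRF3x35S:GIF1 at 10.9, of rGRF3 at 8.23 and of 35S:GIF1 at 7.88. The B arrays of those lines read 6.34, 6.76 and 6.66. On those A arrays the 60S protein genes had medians against the A array of Col-0 of 0.02 in the double line, 0.01 in rGRF3 and 0.06 in 35S:GIF1, and on the B arrays -0.30, -0.15 and -0.03. The part of the 25S signal in these values was not tested.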

How the results depend on the processing

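No gene of the 36 passed in a genotype comparison under any setting run, leave-one-out included. Standard errors, intervals and adjusted p-values printed for single genes in genotype comparisons come from the limma fit without letter as replicate block. Adding that block changed no call. In the double line against Col-0 the lowest adjusted p was then 0.186 (AT4G13170), and 6 genes had an unadjusted p under 0.05, where 17.5% of all probe sets did. The blocked adjusted p was 0.203 for AT4G10450, 0.232 for AT3G16780 and 0.267 for AT3G09630. The number called between letters was 1, and it was 0 without a filter, 2 with a minimum of 6, 3 with trend and robust, and 0 to 1 leaving out each array. The non-additive median of -0.04 was -0.068 with median-centred arrays and 0.014 with cyclic loess (16 genes below 0). The letter difference of the rGRF3 effect, -0.17, stayed at -0.17 with median-centred arrays and without AT2G32220, and was -0.12 with cyclic loess, which also gave 19 genes with rGRF3 arrays lowest in letter B.

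Leaving out each array gave medians of -0.22 to -0.03 (double line against Col-0), -0.12 to -0.05 (rGRF3), -0.02 to 0.07 (35S:GIF1), -0.12 to 0.065 (double line against rGRF3), -0.24 to -0.06 (against 35S:GIF1), -0.13 to 0.038 (non-additive) and -0.22 to -0.12 (letter difference of the rGRF3 effect). Genes below 0 numbered 10 to 24 in 35S:GIF1, 13 to 34 in the double line against rGRF3 and 14 to 33 for the non-additive term. Signs turned for AT5G02870 in the double line (0.018 with cyclic loess, 0.038 without Col-0 B). Leaving out 1 of the double-line arrays gave -0.072 to 0.24 for AT4G02230, -0.098 to 0.20 for AT2G37190 and -0.29 to 0.019 for AT3G49910. AT3G62870 in rGRF3 was -0.027 without Col-0 A and -0.099 without rGRF3 A, and AT2G32220 in 35S:GIF1 ran from -1.03 to 0.14 without an array of Col-0. The cause was not tested. With 2 arrays a genotype, the number of arrays limits the precision.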
